A study of Mus musculus with 6 samples.

Results

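The kinesin motor family was described across 45 listed genes in endothelial cells sorted from mouse skin, with and without APJ, the receptor for apelin encoded by Aplnr. A gene was a member if a measuring probe of the array carried a transcript accession that maps to one of the listed symbols. This found 43 genes through 62 of 55681 probes, and no probe was matched to Kif14 or Kifc1. A gene was tested when any of its probes was well above background on every array of at least 1 group. The brightest such probe represented it, and 36 members passed, among 24245 genes and unnamed probes tested in all. The family was chosen from results on these same arrays, above all the difference in log2 signal of Kif9 between the genotypes, so every difference of a member between the genotypes is a description and carries no test. Agilent one-colour expression arrays measured RNA from 3 APJ knockout (APJ KO) and 3 wild-type (WT) samples. All 6 samples are labelled C57Bl/6J, each carries the number of 1 mouse of its genotype, and the cells were sorted by fluorescence with no treatment afterwards. An embryonic stage appears in the scanner files' names but in none of the labels, and the labels name neither the knockout allele, the cells that lack the receptor nor the markers of the sort.

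Kinesins are motor proteins that use ATP to move along microtubules, most of them toward the plus end. Mitotic kinesins build the spindle, align and separate chromosomes and finish cytokinesis, and their transcripts accumulate in dividing cells. Transport kinesins carry vesicles, mitochondria and membrane proteins along the microtubules of non-dividing cells as well, a task best known from the axons of neurons, and some are recruited through light chains or an adaptor subunit. A smaller number works in cilia, either in building them or in the beating axoneme.

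Promoter motifs were counted by subgroup, and the sequences below carry a motif known from dividing or from ciliated cells. Windows reaching from 250 bases before to 50 bases after each transcription start came from RefSeq (GRCm38.p6), with 40 windows for 36 members. The cell cycle genes homology region, searched as TTTGAA on both strands, was present in 10 of 12 windows of mitotic kinesins (83.3%), in 1 of 12 windows of transport kinesins (8.33%) and in 17.9% of all 32851 windows. The CCAAT box, searched on both strands, was present in 8 of 12 mitotic windows (66.7%), in 4 of 12 transport windows (33.3%) and in 37.4% of all windows. The X-box, a sequence bound by the RFX factors of ciliated cells and searched as GTTGCCATG on both strands, was present in 3 of 7 windows of cilium kinesins and in 254 of all windows (0.773%). Of these 3, the windows of both Kif9 starts overlap and hold the same match, and the other belongs to Kif24. None of the mitotic or transport windows held these letters. Kif9 is shown because it differed most between the genotypes. The mitotic promoters are shown because none of their tested genes separated the genotypes on its brightest probe. Each line runs 5′ to 3′ on the strand of the gene, with the motif in capitals. For the 3 mitotic kinesins shown it reads TTCAAA because it lies on the opposite strand. In Kif4, Kif18b, Kif20b and Kif23, not shown, it lies instead on the gene's own strand and after the start. The stretches are chr9:110476856-110476975 on the plus strand for Kif9, chr19:37376342-37376381 on the plus strand for Kif11, chr9:122951041-122951080 on the plus strand for Kif15 and chr7:127042421-127042460 on the minus strand for Kif22. A match of letters is not a bound site, and no binding was measured here.
Kif9: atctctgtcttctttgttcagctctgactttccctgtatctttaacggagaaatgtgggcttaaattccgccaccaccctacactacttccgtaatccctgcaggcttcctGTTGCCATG
Kif11: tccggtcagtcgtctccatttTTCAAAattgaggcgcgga
Kif15: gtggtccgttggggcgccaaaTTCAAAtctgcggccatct
Kif22: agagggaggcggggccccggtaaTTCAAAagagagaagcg

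All levels are log2 signals relative to the 75th percentile of their own array, so a level of 0 equals that percentile, and differences are APJ KO minus WT with the standard error (SE) of the limma fit over all features. The share of probes called well above background ranged from 50.3% to 58.0% per array. Precision is limited by there being 3 arrays a group. Aplnr itself stood at 1.90, 1.72 and 2.26 on the APJ KO arrays, against 3.35, 3.78 and 3.83 on the WT arrays. Its only probe was thus well measured in both groups and lower in APJ KO, at 30.9% of WT, and whether the probe lies in the deleted part of the gene is not known. All 14 endothelial marker genes were well above background on all 6 arrays. Slide 1 of the arrays held replicates 1 and 2 of both genotypes and slide 2 held replicate 3 of both. The scan dates in the file headers split the arrays in the same way. A difference between the slides therefore cannot be told apart from one between scans or between replicate 3 and the others. The errors and p-values below measure the spread between these samples, and whether they share litters or preparation days is not known.

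Among the 36 tested members, 1 passed a false discovery rate of 0.05 between the genotypes. Over all features 135 passed, which is 0.557%, with 90 higher in APJ KO (0.371%) and 45 lower (0.186%). With a replicate block 5 features passed, and 12 to 63 when 1 array was left out. The member was Kif9, and since its difference prompted the choice of the family, nothing is read from that count. Values of the groups did not overlap for 7 members (19.4%), 6 of them higher and 1 lower in APJ KO, against 12.2% of all features. The 6 were Kif9, Kif26b, Kif5c, Kif21b, Kif2a and Kif1b, and the 1 lower was Kif13a. Without Kif9, which prompted the choice of the family, the count was 6 of 35 members (17.1%). For 28 members (77.8%) the difference was under 0.25 in size, against 83.4% of all features. The median difference was 0.022 over the members and -0.019 over all features, with 20 members above 0 and 16 below.

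**Figure D1:**
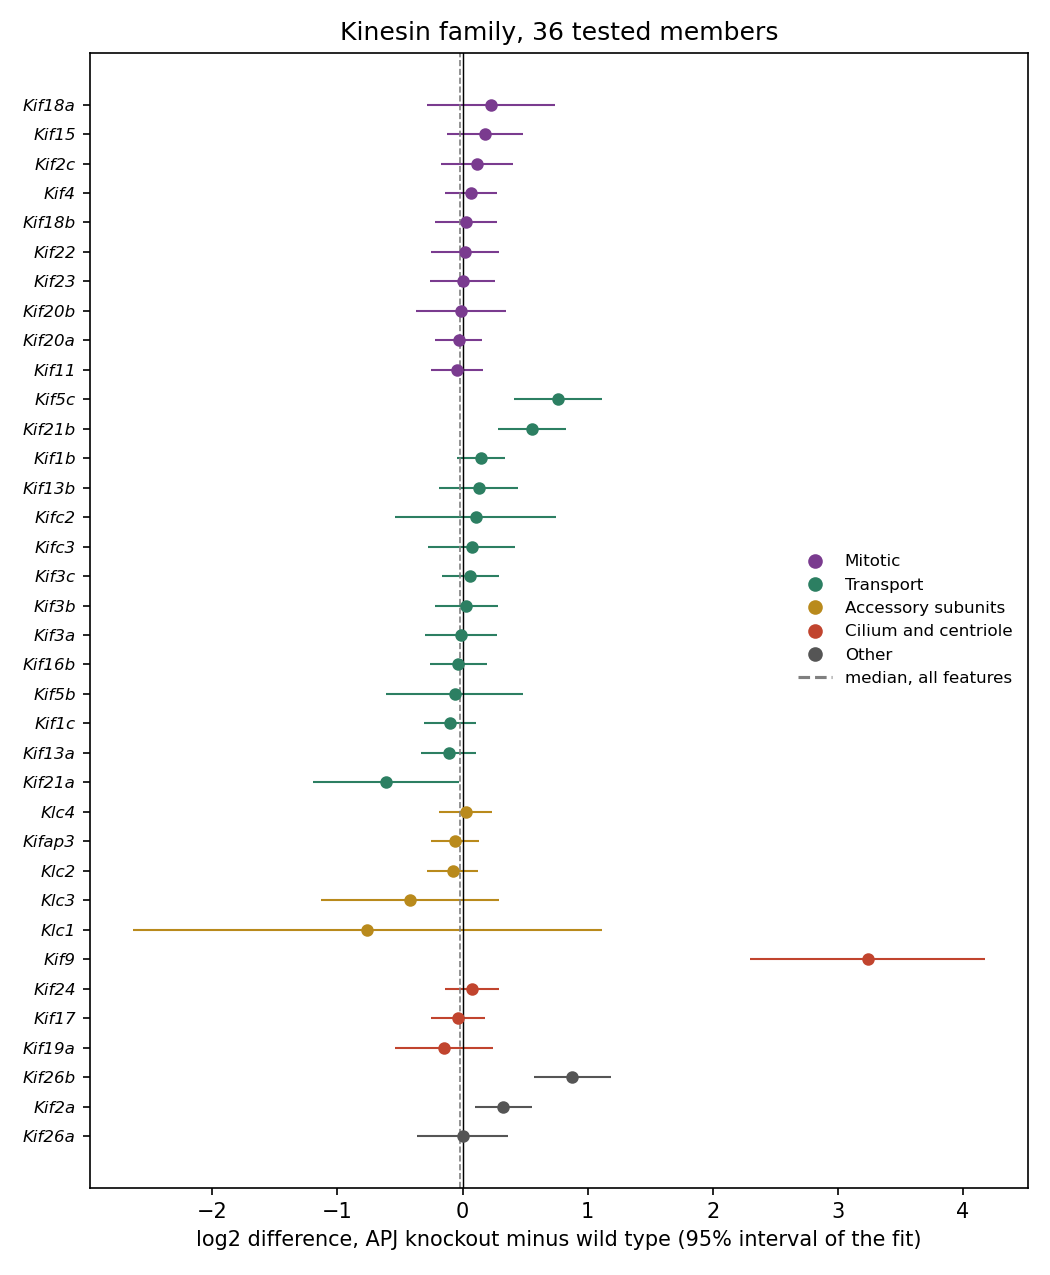
Log2 difference, APJ KO minus WT, of the 36 tested kinesin members (points) with the 95% interval of the fit (bars), in rows by role, and the median over all features (dashed line). The 10 mitotic kinesins lie between -0.04 and 0.23. Kif9 lies at 3.24, a measured difference against WT arrays at background. The lower bound from its means is 2.43, which leaves out the spread between arrays. The light chain Klc1 has the widest interval, from -2.63 to 1.11.

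Kif9 is a kinesin of the central apparatus of motile cilia and sperm flagella, and its gene lies on chromosome 9. Its brightest probe, designed on the RefSeq transcript NM_001163569, read -2.08, -2.88 and -2.01 on the APJ KO arrays, against -4.88, -5.53 and -6.27 on the WT arrays. It was well above background on 3 of 3 APJ KO arrays and 0 of 3 WT arrays, and every APJ KO array was higher than every WT array. The means were -2.32 ± 0.48 in APJ KO and -5.56 ± 0.70 in WT (SD, n = 3 each), a difference of 3.24 ± 0.39 (SE; 95% interval 2.30 to 4.17). Because WT was not well above background, the fold has only a bound, and by the measured means APJ KO was at least 5.39-fold higher. This bound sets the APJ KO mean against the mean, over the WT arrays, of the lowest signal of any probe well above background on that array, or the probe's own signal where that was higher. It leaves out the spread between arrays, as do the bounds given for other probes. Its log2 value, 2.43, lies above the lower end of the 95% interval. The difference was 2.73 on slide 1 and 4.26 on slide 2. Kif9 was the brighter in APJ KO in every same-numbered pair, but once replicate numbers entered the fit as a block it no longer passed the threshold (difference 3.24, 0 members called), and the call held in only 1 of 6 fits that left out 1 array, the one without WT replicate 3. With normexp background correction, which here adds an offset of 50 to each intensity, the difference was 0.85 and not past the threshold. Such an offset shrinks log2 differences of dim probes, as the median intensity was 16.7 to 27.7 per array. How much of the drop is due to the offset was not tested.

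The other probes of Kif9 did not all follow. A second probe on NM_001163569 read -2.67, -3.24 and -2.64 in APJ KO, against -6.97, -6.28 and -7.30 in WT, again well above background on 3 of 3 and 0 of 3 arrays. By the measured means of this probe, -2.85 in APJ KO and -6.85 in WT, the bound was at least 3.74-fold higher in APJ KO. A probe designed on NM_010628, the other Kif9 transcript accession on the array, read -4.80, -5.00 and -4.97 in APJ KO, against -5.36, -6.06 and -7.33 in WT, and was well above background on 1 APJ KO array and no WT array. Its groups did not overlap, yet most of its values lay at background. The last probe, on NM_010628 as well, read -6.63, -1.12 and -7.28 in APJ KO, against -6.72, -6.34 and -7.23 in WT. Here replicate 2 of APJ KO alone was well above background, and the remaining APJ KO arrays were as dim as the WT arrays. RefSeq lists both accessions under Kif9, and where the probes lie within the transcripts is not known here.

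**Figure D2:**
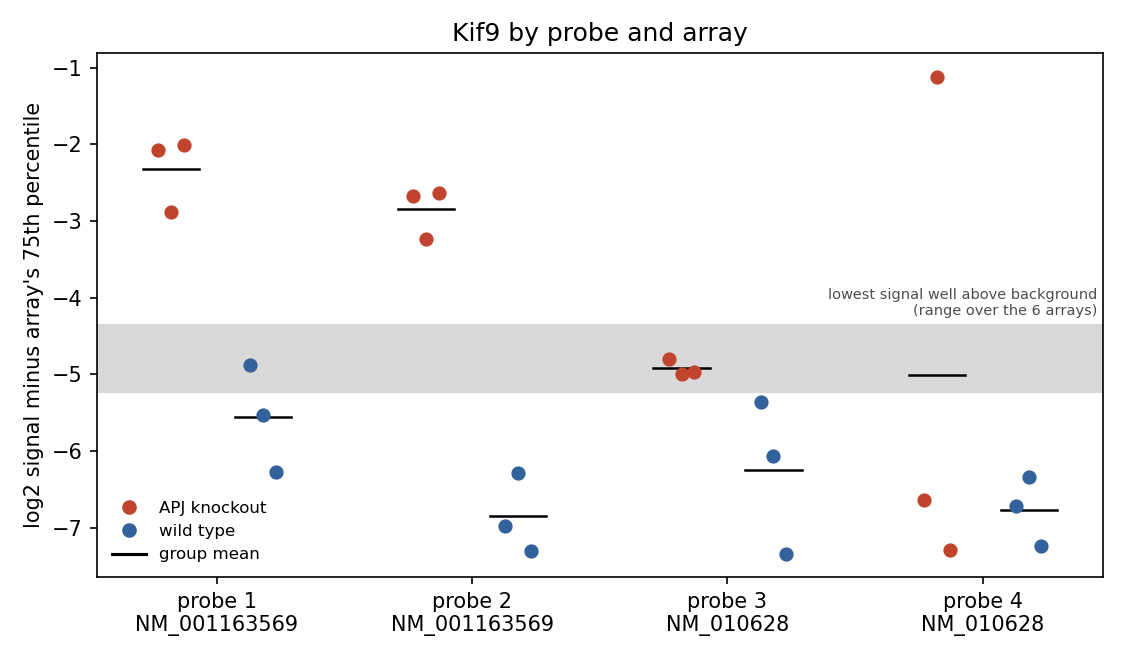
Log2 signal relative to the array's 75th percentile for the 4 Kif9 probes on each APJ KO array (red) and WT array (blue), with group means (bars) and, shaded, the lowest signal called well above background on the 6 arrays. Probes 1 and 2 separate the genotypes, with APJ KO above the shaded range and WT in or below it, whereas probe 3 lies mostly in or below it and probe 4 has a single high APJ KO value of -1.12.

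The genes next to Kif9 were read for comparison, 3 on each side, and none was called. Of those before it, Scap differed by -0.14, Ptpn23 by 0.02 and Klhl18 by -0.08. Of those after it, Setd2 differed by 0.16 and Nbeal2 by 0.04. Nradd, a gene related to the neurotrophin receptor, read -0.04, 0.24 and 0.32 in APJ KO, against 0.56, 0.57 and 0.71 in WT, without overlap and opposite in direction to Kif9 (difference -0.44 ± 0.12, SE).

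The other cilium kinesins lay close to WT or at background. Kif24, which restrains cilium formation at the centriole, read -1.54, -1.67 and -1.71 in APJ KO, against -1.64, -1.74 and -1.77 in WT, overlapping groups with a difference of 0.08. Kif19a, which shortens ciliary microtubules, read -1.20, -1.05 and -1.40 in APJ KO, against -1.03, -0.83 and -1.35 in WT, also overlapping (difference -0.15). Kif17, the accessory motor of intraflagellar transport, differed by -0.04. Kif7, the kinesin of Hedgehog signalling, was well above background on 1 array of each genotype, Kif6 on 1 APJ KO and 2 WT arrays, and Kif27 on none, and these 3 were not tested. Motile axoneme genes were likewise rarely detected: 21 of the 25 listed had a probe and 6 were tested, with a median difference of 0.033 and none called. Of these, Tekt2, a filament protein of the axoneme, differed by -0.45 and Rsph9, of the radial spoke head, by 0.40, both without overlap. Of 24 genes of intraflagellar transport and ciliary trafficking 21 were tested, with a median difference of 0.019 and none called. Among these, 5 were higher in APJ KO without overlap (23.8%, against 12.2% of all features), the largest being Ift57 at 0.35 and Ift43 at 0.21. Of 12 Hedgehog pathway genes 9 were tested, with a median of -0.06 and none called; Sufu, which restrains the pathway, differed by -0.51 and the transcription factor Gli3 by -0.17.

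The mitotic kinesins were well above background on all 6 arrays for 10 of the 13 listed genes. By brightest probe, none of the 10 differed between the genotypes without overlap, against 12.2% of all features. Their differences ran from -0.04 to 0.23, which is 0.971-fold to 1.17-fold, and their 95% intervals all lay within -0.37 and 0.74. The median was 0.025, with 7 of 10 above 0. Kif2b, a microtubule depolymerase, was well above background on no array.

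Of the motors that build the spindle, Kif11 (Eg5), which slides its poles apart, read 0.80, 0.77 and 0.70 in APJ KO, against 0.86, 0.82 and 0.71 in WT. Kif15, which works beside Kif11, read -1.001, -1.205 and -1.110 in APJ KO, against -1.147, -1.519 and -1.188 in WT. Both overlapped between the genotypes, with differences of -0.04 for Kif11 and 0.18 for Kif15. Kif2c (MCAK), a depolymerase at the centromere, read 0.41, 0.24 and 0.02 in APJ KO, against 0.17, 0.11 and 0.04 in WT (difference 0.11, overlapping). A second, dimmer Kif2c probe did not overlap, at 0.04, -0.05 and -0.05 in APJ KO, against -0.08, -0.27 and -0.10 in WT (difference 0.13).

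The motors that act on chromosomes were as close. Kif22 (Kid), which pushes chromosome arms, read 4.50, 4.49 and 4.75 in APJ KO, against 4.50, 4.49 and 4.69 in WT, so that replicate 3 was highest in both genotypes. Kif4, the chromokinesin that sets the length of the midzone, read 1.44, 1.34 and 1.29 in APJ KO, against 1.35, 1.26 and 1.26 in WT (difference 0.07). Kif18a, which dampens chromosome movement, had the widest spread of the mitotic members, at -0.21, -0.27 and -0.78 in APJ KO, against -0.29, -0.81 and -0.84 in WT. Its difference of 0.23 ± 0.21 (SE) was the largest among them, with overlapping groups, and its relative Kif18b differed by 0.03.

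For the motors of the midzone and cytokinesis, Kif20a (MKLP2) read 3.113, 3.068 and 3.048 in APJ KO, against 3.131, 3.085 and 3.103 in WT. Kif23 (MKLP1), the motor of centralspindlin, read 1.59, 1.69 and 1.84 in APJ KO, against 1.76, 1.57 and 1.79 in WT. Kif20b read 2.36, 2.22 and 1.96 in APJ KO, against 2.37, 2.24 and 1.97 in WT, where same-numbered arrays lay closer together than arrays of 1 genotype. The differences of these 3 ran from -0.03 to 0.00.

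Other genes of dividing cells were read beside the mitotic kinesins. On each array the median deviation of the tested mitotic kinesins from their own means was 0.07, -0.01 and -0.04 in APJ KO, against 0.04, -0.07 and -0.03 in WT. Of 30 proliferation genes 29 were tested, with a median difference of -0.0016, none called and none without overlap. Its members Cdc20, an activator of the anaphase-promoting complex, and Mybl2, a transcription factor of the cell cycle, each differed by 0.13. Of 22 spindle partners, such as the Aurora kinases and the chromosomal passenger complex, all 22 were tested, with a median of 0.0072 and none called or without overlap. Tacc3, a spindle microtubule protein, differed by 0.16.

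**Figure D3:**
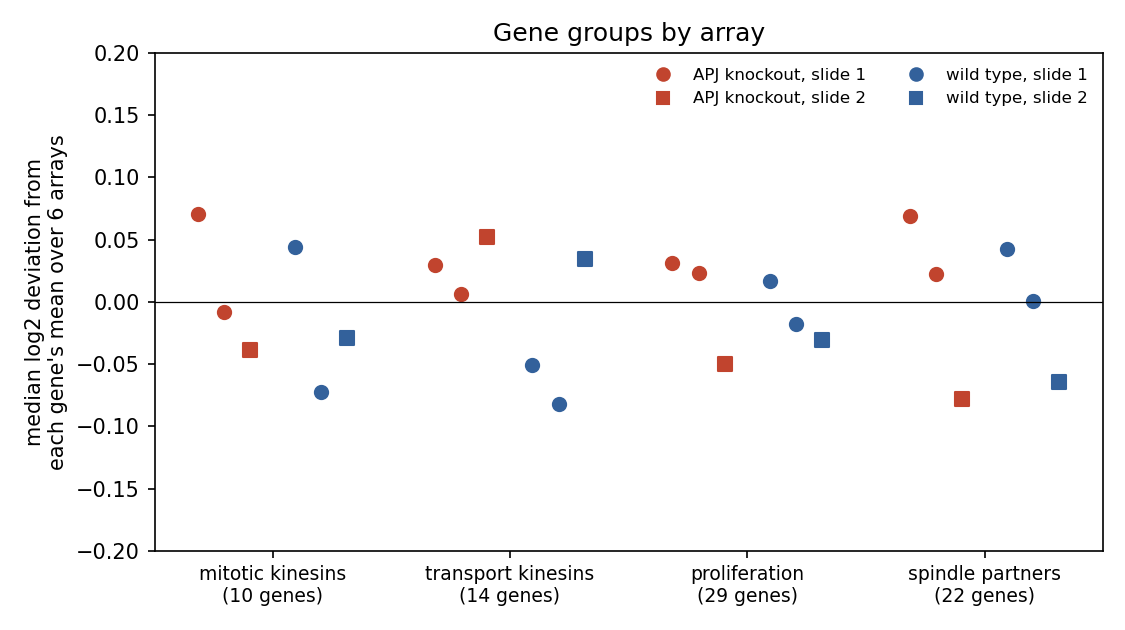
Median deviation (log2) from each gene's mean over the arrays, by array, for the mitotic kinesins, the transport kinesins and the comparison lists, with APJ KO arrays (red) left of WT arrays (blue), circles for slide 1 and squares for slide 2. The mitotic medians stay between -0.07 and 0.07 on all 6 arrays.

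The transport kinesins spread more widely, from -0.61 to 0.76 over the 14 of 16 that were tested, with a median of 0.047. Of these, 4 did not overlap between the genotypes (28.6%, against 12.2% of all features), 3 higher and 1 lower in APJ KO, and none was called. Kif1a and Kif5a, axonal motors, were not tested, each being well above background on no APJ KO array and on 1 WT array.

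The heavy chains of conventional kinesin differed from each other in this respect. Kif5c, the heavy chain enriched in neurons, read -3.05, -2.72 and -2.95 in APJ KO, against -3.42, -3.82 and -3.77 in WT. All APJ KO arrays were higher than all WT arrays, by 0.76 ± 0.15 (SE), or 1.70-fold, with 0.73 on slide 1 and 0.82 on slide 2, but 0.23 with normexp background correction. Kif5b, the ubiquitous heavy chain, read 0.37, 0.30 and 0.95 in APJ KO, against 0.48, 0.38 and 0.96 in WT. Kif5b therefore followed the slide and not the genotype, with a genotype difference of -0.06 and a difference of 0.58 ± 0.07 (SE) between slide 2 and slide 1 (limma adjusted p = 0.0154). In bulk samples, more RNA per cell and a larger share of cells of a type that carries the transcript cannot be told apart. Of the 12 neuron and Schwann cell markers Erbb3, Foxd3 and Nefm were well above background on no array. The summed level of the list, in multiples of the array's 75th percentile, ran from 30.2 to 33.5 in APJ KO and from 29.6 to 36.5 in WT. Most of that sum was Snap25 alone, at 27.2 to 31.2 in APJ KO and 26.3 to 34.2 in WT. Their part in the difference of Kif5c was not tested.

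The closely related motors Kif21a and Kif21b, which hold back microtubule growth and carry cargo in neurons, lay on opposite sides of WT. Kif21b read 2.47, 2.72 and 2.68 in APJ KO, against 2.05, 1.95 and 2.20 in WT, without overlap, by 0.56 ± 0.11 (SE), or 1.47-fold. Kif21a read -1.59, -2.26 and -2.38 in APJ KO, against -1.15, -1.57 and -1.68 in WT, by -0.61 ± 0.24 (SE). The Kif21a groups overlapped, since replicate 1 of APJ KO lay above replicate 3 of WT, and in each same-numbered pair the APJ KO array was the lower. On the slides Kif21b differed by 0.59 and 0.48, and Kif21a by -0.57 and -0.70. With normexp background correction Kif21b differed by 0.54 and Kif21a by -0.32.

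Among the kinesin-3 motors, Kif1b, a carrier of mitochondria and synaptic vesicle precursors, read 3.07, 3.07 and 2.99 in APJ KO, against 2.95, 2.89 and 2.85 in WT. This brightest probe did not overlap between the groups (difference 0.15), but a second Kif1b probe did, with a difference of 0.06. Kif13a, a motor of endosomes, read 1.95, 1.99 and 1.79 in APJ KO, against 2.07, 2.01 and 2.00 in WT, without overlap and lower by a small amount (-0.11). Kif1c, which moves between the Golgi and the cell edge, differed by -0.10 on its brightest probe, by -0.23 without overlap on the next and by -0.19 on the last. Kif13b, which carries membrane receptors, differed by 0.13 and Kif16b, a motor of early endosomes, by -0.03.

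The subunits of heterotrimeric kinesin-2, which drives intraflagellar transport, had small differences with overlapping groups. Kif3a differed by -0.01, Kif3b by 0.03 and Kif3c by 0.06. Their adaptor Kifap3 read 1.74, 1.69 and 1.69 in APJ KO, against 1.78, 1.80 and 1.72 in WT, with a difference of -0.06. The minus-end motors Kifc2 and Kifc3 differed by 0.11 and 0.07.

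The kinesin light chains, which tie conventional kinesin to its cargo, included Klc1, whose difference had the largest SE of the tested members. Klc1 read 1.78, 1.61 and -1.26 in APJ KO, against 1.57, 1.54 and 1.30 in WT. Replicate 3 of APJ KO alone was low, and it sets the difference of -0.76 ± 0.78 (SE), which was 0.23 without that array, 0.14 on slide 1 and -2.57 on slide 2. A second Klc1 probe, on NM_001025360, read -1.33, -2.12 and -1.32 in APJ KO, against -1.29, -1.25 and -1.32 in WT, where replicate 2 of APJ KO was the low one. Klc3 read -2.57, -2.72 and -2.38 in APJ KO, against -2.53, -2.44 and -1.44 in WT, again with 1 array apart, WT replicate 3 (difference -0.42 ± 0.30, SE, and -0.071 without that array). Klc2 differed by -0.08 and Klc4 by 0.02.

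Of the members outside these roles, Kif26b and Kif2a were higher in APJ KO without overlap. Kif26b, an unusual kinesin of cell adhesion and kidney development, read -2.17, -2.35 and -2.32 in APJ KO, against -3.27, -2.92 and -3.29 in WT. The difference was 0.88 ± 0.13 (SE; 95% interval 0.57 to 1.18), or 1.84-fold, with 0.83 on slide 1 and 0.97 on slide 2, and it was 0.35 with normexp background correction. It was not past the threshold in the fit over all features, but was with the slide as a block. Its relative Kif26a read 4.03, 3.96 and 4.41 in APJ KO, against 4.02, 4.07 and 4.31 in WT, and followed the slide by 0.34 ± 0.07 (SE; limma adjusted p = 0.0461), while the 95% interval of its genotype difference ran from -0.36 to 0.36. Kif2a, a depolymerase that trims microtubules in neurons and at spindle poles, read 1.47, 1.68 and 1.55 in APJ KO, against 1.17, 1.26 and 1.29 in WT, by 0.33 ± 0.09 (SE), or 1.25-fold. Its 2 dimmer probes overlapped between the groups, with differences of -0.02 and 0.20. Kif12 was well above background on no array.

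**Figure D4:**
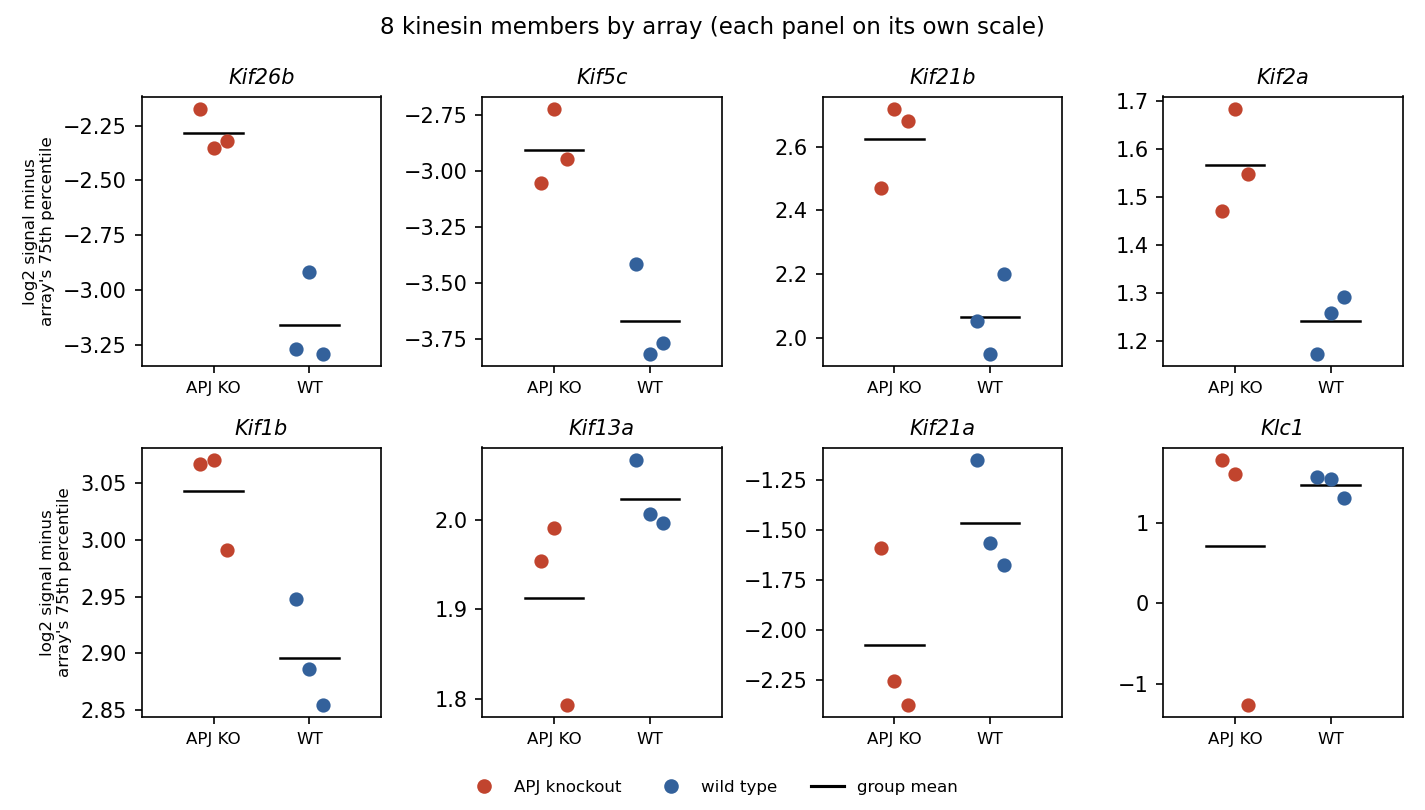
Log2 signal relative to the array's 75th percentile on each APJ KO array (red, left) and WT array (blue, right) for 8 members, with group means (bars) and a scale for each panel. Kif26b, Kif5c, Kif21b, Kif2a and Kif1b are higher in APJ KO without overlap, Kif13a is lower without overlap, Kif21a overlaps, and Klc1 has 1 low APJ KO array at -1.26.

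Markers of other cells were read beside these members, and none of those listed in this paragraph was called. Of 11 macrophage markers with a probe, 10 were above 0 in difference and 6 (54.5%, against 12.2% of all features) were higher in APJ KO without overlap, with a median of 0.48. All 11 were detected on each APJ KO array and 7 to 11 on the WT arrays. Their summed level ran from 13.5 to 18.7 in APJ KO and from 12.1 to 20.9 in WT. Such a sum is weighted to the brightest markers, here Csf1r, Tyrobp and Mrc1, with differences of -0.23, 0.28 and 0.06. The dimmer Adgre1, C1qc, Lyz2 and C1qa differed by 2.07, 1.91, 1.83 and 1.79, with overlap for Adgre1. None of these dimmer markers was well above background on every WT array, so they were tested through APJ KO alone. Aif1, C1qb and Ptprc were well above background on every array and higher in APJ KO without overlap, by 1.11, 0.48 and 0.39. Fcgr3 differed by 0.26, with overlap. Platelet markers summed to 6.81 to 8.83 in APJ KO and 5.42 to 5.87 in WT, and their median difference was 0.29. Of the 7 platelet markers, 6 were above 0, and 3 (42.9%, against 12.2% of all features) were higher in APJ KO without overlap. For fibroblast and mural cell markers, of which Myh11 was well above background on none, the sums were 4.75 to 8.44 in APJ KO and 5.64 to 7.52 in WT (median difference -0.15). Keratinocyte markers summed to 10.9 to 12.0 in APJ KO and to 10.9 to 36.7 in WT. WT replicate 3 was the highest, and WT replicate 2 the next at 17.4. All 8 tested keratinocyte markers were below 0 in difference, with a median of -1.17. Of these, 1 (12.5%, against 12.2% of all features) was lower in APJ KO without overlap. Erythroid markers summed to 353 to 609 in APJ KO and 331 to 582 in WT. All 6 tested erythroid markers were above 0 in difference, with a median of 0.17. Of these, 1 (16.7%, against 12.2% of all features) was higher in APJ KO without overlap, Hbb-bh1 by 0.73. The part of these cells in the differences of Kif9, Kif26b, Kif5c, Kif21b and Kif2a was not tested.

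Between the slides, a contrast that played no role in choosing the family, 2 of 36 members were called by limma, against 10.5% of all features. With normexp background correction it was 12 members (33.3%), against 41.4% of all features. The 2 without it were Kif5b and Kif26a, both higher on slide 2.

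Groups did not overlap for 1 of 25 tested dynein and dynactin genes (4%), 3 of 19 cargo adaptors (15.8%) and 4 of 25 tubulins and associated proteins (16%), against 12.2% of all features. Of 26 dynein and dynactin genes, which serve the opposite direction of travel, 25 were tested, with a median of 0.0072 and none called. Hook3, a dynein activator, was higher in APJ KO without overlap, by 0.16, and the dynactin subunit Dctn6 differed by 0.10. Of 20 kinesin cargo adaptors 19 were tested, with a median of 0.011 and none called. Sybu (syntabulin), which links Kif5 to mitochondria and synaptic vesicles, read -5.09, -6.61 and -5.09 in APJ KO, against -4.10, -3.73 and -4.28 in WT. This probe was well above background on 0 of 3 APJ KO arrays and 3 of 3 WT arrays. By its measured means APJ KO was at least 1.64-fold lower, a bound that leaves out the spread between arrays. A second Sybu probe read -6.09, -3.27 and -7.16 in APJ KO, against -4.61, -4.32 and -6.37 in WT, with overlap, and was well above background on 1 APJ KO array and no WT array.

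Of 30 tubulins and microtubule-associated proteins 25 were tested, with a median of -0.012, and 1 was called. Stmn1, which sequesters tubulin, read 6.74, 6.90 and 6.76 in APJ KO, against 7.79, 7.48 and 7.74 in WT, without overlap and lower in APJ KO by a difference of -0.87 ± 0.11 (SE; limma adjusted p = 0.0376). A second Stmn1 probe differed by -0.14. The call was lost with the replicate number as a block (limma adjusted p = 0.111) and in each of 6 fits that left out 1 array (limma adjusted p from 0.108 to 0.180).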

How the data were processed

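Per the file headers, Agilent Feature Extraction 10.7.3.1 wrote a background-subtracted and detrended Cy3 intensity for each spot of the deposited scanner files. These intensities had not been normalised between arrays. Per the labels' protocols, 0.1 µg of RNA was labelled. The authors' deposited table holds the same intensity, on a linear scale and not centred by gene, times 1 constant per array (2.29 to 3.69) of unstated origin. Its column medians were 66.98, 60.3 and 63.25 for APJ KO and 63.46, 62.09 and 65.15 for WT. Of 59305 measuring spots per array, 126 to 179 outliers were left out and none was saturated. The log2 intensity minus the array's 75th percentile was averaged over spots of a probe. Among probes passing the filter on dim probes, the one with the highest mean stood for its gene. Probes were named by RefSeq accession. limma 3.58.1 in R 4.3.3 was fitted to all 24245 features with Benjamini-Hochberg adjustment, after a test on simulated data. Members, lists and named genes were chosen with earlier results of these data known. By rule, values per array were given for called members and the 4 of smallest p per role, and 2 genes (or those called) per comparison list were named. Other members with values per array, and Rab3a, Tubb6 and Kifc5b, were added after their values were seen. The replicate block treated same-numbered samples as pairs, and the main fit used no pairing. Residuals of same-numbered samples correlated at 0.23, 0.15 and 0.65. The 0.65 belongs to the pair on slide 2, where number and slide cannot be told apart. On slide 1 both cross-numbered pairs correlated more highly than the same-numbered ones, at 0.36 (APJ KO 2 with WT 1) and 0.28 (APJ KO 1 with WT 2). These correlations therefore do not show that the numbers pair the samples. The array design refers to the mouse build mm9, per the file headers, and promoter windows to GRCm38.p6. The mean signal was not among the columns, so the normexp alternative used the median signal, with an offset of 50.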

Additional observations from a re-analysis of the deposited data

How the results depend on the processing

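Over all features 135 passed the threshold; 3 passed with no filter on dim probes, 291 (190 higher and 101 lower in APJ KO) with the slide as a block, 5 (4 higher and 1 lower) with a replicate block, and 12 to 63 when 1 array was left out. Members called numbered 0 with normexp background correction, with no dim-probe filter, with probes required on all 6 arrays and with the replicate block, 2 with the slide block, and 0 to 1 when 1 array was left out. Kif9 differed by 0.85 with normexp, by 3.24 with no filter and with the replicate block, none of them past the threshold, and by 2.88 to 3.58 when 1 array was left out, with the call kept only without WT replicate 3. It could not be fitted with probes required on all 6 arrays. Between slides, 12 members were called with normexp and 1 with quantile normalization, against 2, where 41.4% and 12.7% of all features were called. The transport median ran from 0.00088 (without WT replicate 2) to 0.11 (without WT replicate 3), the proliferation median from -0.0060 to 0.045 (without WT replicate 1), and the mitotic median from 0.0037 to 0.071. Kif26b passed with the slide block at the same difference (0.88). Stmn1 lost its call with quantile normalization, no filter and the mean over probes (limma adjusted p = 0.0589, 0.282 and 0.0895). The authors' table gave the same values. The replicate block changed no other call among the named genes. With 3 arrays a group, signals at background bound differences and do not measure them.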

Other observations

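Kifc5b, a near-identical copy of the minus-end spindle motor Kifc1, carried 2 probes on NM_053173, both well above background on all 6 arrays. The brighter read 2.95, 2.93 and 2.77 in APJ KO, against 2.88, 2.89 and 2.70 in WT. The dimmer read -1.88, -1.93 and -1.48 in APJ KO, against -1.86, -1.48 and -1.64 in WT. Both overlapped between the genotypes, and to which copy the signal of a probe belongs cannot be told apart here. Among the spindle partners, Aurkb had the widest difference, 0.54 ± 0.42 (SE), with overlapping groups. It read 0.26, -1.38 and -0.74 in APJ KO, against -1.46, -1.27 and -0.74 in WT, and the difference was 0.098 without APJ KO replicate 1. Among the kinesin cargo adaptors, Rab3a, a vesicle GTPase, was higher in APJ KO without overlap, by 0.30, and Mapk8ip2, a scaffold bound by kinesin light chains, was lower without overlap, with a difference of -0.42. Mapk8ip2 was dim, at -4.48, -4.31 and -4.10 in APJ KO, against -3.96, -3.74 and -3.92 in WT. It was well above background on all WT arrays but only 2 APJ KO arrays, so it was tested through WT alone. Among the tubulins, Tubb6 differed by 0.21 and Tubb2b by -0.27, both without overlap and neither past the threshold.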
